A study of Mus musculus with 2 samples.

Results

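Platelets carry growth factors in their alpha granules, and 9 of the genes that encode them or hold them in store are described here: Tgfb1, Ltbp1, Pdgfa, Pdgfb, Bmp2, Bmp4, Bmp6, Igf1 and Egf. They were taken by name. On the array they are covered by 17 probe sets annotated to 1 of these symbols alone, of 34945 probe sets with a single gene symbol, and 0 further probe sets name a member together with another gene. Signals came from washed platelets of C57BL/6 mice of 2 genotypes: Smad4 −/−, in which a Cre recombinase under the PF4 promoter deletes the loxP-flanked Smad4 gene in megakaryocytes and platelets, and Smad4 f/f, which carries the loxP-flanked gene, is also labelled as wild type and serves as the control. The labels give 6 mice per genotype but no age or sex, and do not say whether the control mice carried Cre or whether RNA of the mice was pooled. Each genotype was hybridised to 1 array. Without replicates no test was run, and every difference is one between 2 arrays.

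TGF-beta1 leaves the cell in a latent complex, in which its own propeptide is bound to a latent TGF-beta binding protein such as LTBP1. Once freed it signals through receptor-regulated SMAD proteins that pair with SMAD4, and bone morphogenetic proteins (BMPs) use the same partner. Platelet-derived growth factor (PDGF), insulin-like growth factor 1 (IGF1) and epidermal growth factor (EGF) act through receptor tyrosine kinases instead. Platelets have no nucleus, and their mRNA comes from the megakaryocyte.

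A signal floor was set at the higher of the arrays' 60th percentiles, which is 7.18 on the log2 scale and 145 on the linear scale. Of the 17 probe sets, 7 lay above this floor on both arrays, 5 on 1 array and 5 on neither. The 7 belong to Ltbp1, Pdgfa, Tgfb1 and Bmp2. Of the 12 probe sets measured on at least 1 array, 0 were 2-fold higher and 0 were 2-fold lower in Smad4 −/−. Over all 18099 measured probe sets, 3.35% were 2-fold higher and 3.5% 2-fold lower (607 and 633, or 782 and 503 after median centring), 6.85% in all. With so small a share, a count of 0 among 12 is near the background and is no result about the members. Among the 7, Ltbp1 read higher in Smad4 −/− on all 3 of its probe sets and Pdgfa lower on both of its probe sets, while the Tgfb1 and Bmp2 signals were closer to equal. In all 4 of the 7 read higher, and of the 12336 probe sets with both signals over the floor, 49.1% did.

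**Figure D1:**
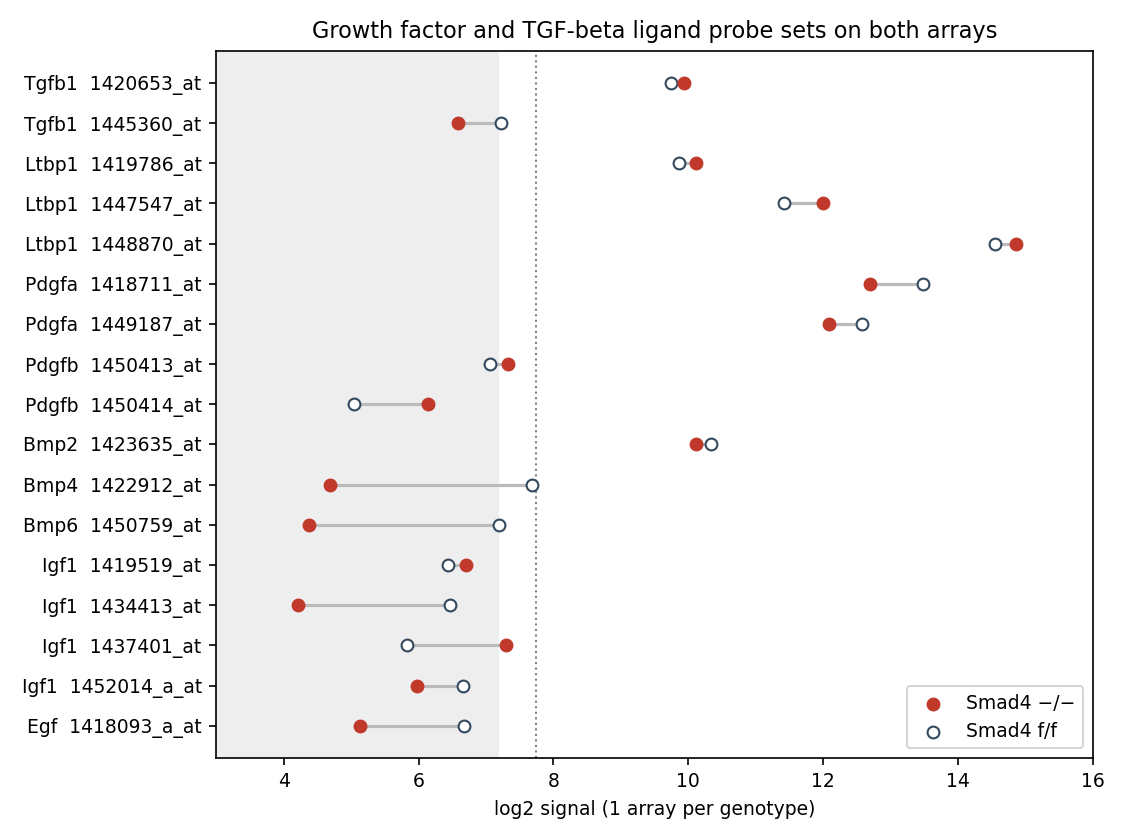
Log2 signal (horizontal axis) of each of the 17 probe sets on the Smad4 −/− array (filled) and the Smad4 f/f array (open), joined by a line. The shaded area lies below the floor of 7.18 and the dotted line marks 7.74, the 95th percentile of olfactory and vomeronasal receptor probe sets; Ltbp1, Pdgfa, Bmp2 and 1 probe set of Tgfb1 lie to the right of both.

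Array-wide facts bear on how these values are read. The 12 platelet markers with a probe set were each read from the strongest one. All were above the floor on both arrays and within 2-fold, from −0.47 for Selp to 0.43 for Treml1 on the log2 scale. For Selp the mean over its 3 measured probe sets was lower, −0.82. The summed linear signal of the 12 was 1198770.2 in Smad4 −/− and 1146883 in Smad4 f/f. The 3 probe sets of Smad4 had log2 ratios of −0.12, −0.09 and −0.13, and their place relative to the deleted part was not analysed here. For the Gapdh control probe sets, signal at the 3' end over that at the 5' end, which grows as RNA degrades, was 2.61 in Smad4 −/− and 1.86 in Smad4 f/f, and for beta-actin the values were closer, 1.27 in Smad4 −/− and 1.16 in Smad4 f/f. Signals of different probe sets do not rank transcripts, because probes bind with different strength.

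Tgfb1 encodes the TGF-beta1 precursor. Its probe set 1420653_at read 982 in Smad4 −/− and 858 in Smad4 f/f, a log2 ratio of 0.20. The second, 1445360_at, read 95.5 in Smad4 −/− and 149 in Smad4 f/f and was just above the floor in Smad4 f/f alone, so that no fold is given for it. The value of the gene therefore rests on 1420653_at, which read slightly higher in Smad4 −/−. Among 6075 probe sets with both signals over the floor whose higher log2 signal lies between 8 and 10, the 25th and 75th percentiles of the ratio were −0.40 and 0.35, and the ratio of 1420653_at falls between them.

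Ltbp1 encodes the protein that tethers latent TGF-beta to the extracellular matrix. Its probe set 1448870_at read 29629 in Smad4 −/− and 24098 in Smad4 f/f, 1.23-fold higher. Probe set 1447547_at read 4092 in Smad4 −/− and 2734 in Smad4 f/f, 1.497-fold higher. Probe set 1419786_at read 1107 in Smad4 −/− and 935 in Smad4 f/f, 1.18-fold higher. All 3 were higher in Smad4 −/−, with log2 ratios of 0.30, 0.58 and 0.24, a mean of 0.37 and an SD among probe sets of 0.18, which measures the probes and not the animals. Of 629 genes with 3 such probe sets, 20.8% had all of them higher and 21% all of them lower, so agreement of this kind was common. Each Ltbp1 ratio lay inside the middle 90% of all probe sets in its signal range. For 1448870_at, in the range from 14 upwards, the 75th and 95th percentiles were 0.20 and 0.59, and for 1447547_at, between 10 and 12, they were 0.31 and 0.88. In bulk RNA of this kind, more cells carrying a transcript and more transcript per cell cannot be told apart.

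Mouse Ltbp1 has 2 annotated starts in RefSeq (GRCm38.p6), both on the plus strand. The windows from 250 bases before to 50 bases after each start are printed, because Ltbp1 is the strongly detected member with all probe sets on the higher side. Capitals mark matches, on either strand, to 7 short motifs: the SMAD box CAGAC, the GC-rich SMAD site GGCGCC, the GATA motif as AGATAA or TGATAA, the ETS motif CCGGAAG, the cyclic AMP response element TGACGTCA and the GC box GGGCGG.
Ltbp1, chr17:75005279-75005578, plus strand: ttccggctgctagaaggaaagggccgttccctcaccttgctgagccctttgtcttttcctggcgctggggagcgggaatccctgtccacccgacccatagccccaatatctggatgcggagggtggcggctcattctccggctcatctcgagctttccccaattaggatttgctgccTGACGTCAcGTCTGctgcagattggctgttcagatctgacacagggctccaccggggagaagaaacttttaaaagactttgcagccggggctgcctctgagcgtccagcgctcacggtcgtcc
Ltbp1, chr17:75178531-75178830, plus strand: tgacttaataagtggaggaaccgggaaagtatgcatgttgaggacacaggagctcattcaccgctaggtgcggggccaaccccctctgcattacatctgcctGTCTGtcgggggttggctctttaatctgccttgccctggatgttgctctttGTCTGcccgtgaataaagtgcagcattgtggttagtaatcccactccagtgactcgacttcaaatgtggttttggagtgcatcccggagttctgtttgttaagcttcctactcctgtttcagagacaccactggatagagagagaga
The upstream window holds 1 cyclic AMP response element and, next to it, 1 SMAD box read from the other strand (GTCTG), which do not overlap. The downstream window holds 2 SMAD boxes. Of the 32851 promoter windows in the table, 49.6% hold a SMAD box and 1.79% a cyclic AMP response element. A match of letters describes the window and is not a binding site.

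Pdgfa encodes the A chain of PDGF, a mitogen for mesenchymal cells and a classic cargo of the alpha granule. Its probe set 1418711_at read 6634 in Smad4 −/− and 11430.8 in Smad4 f/f, 1.72-fold lower and a log2 ratio of −0.78. Probe set 1449187_at read 4374 in Smad4 −/− and 6102 in Smad4 f/f, 1.40-fold lower and a log2 ratio of −0.48. Both were lower in Smad4 −/− and both are far above the floor. They are annotated to 1 accession, so they share a target sequence record and are not independent. Of 1777 genes with 2 probe sets over the floor throughout, 31.7% had both lower and 27.7% both higher. Among 1140 probe sets whose higher log2 signal lies between 12 and 14, the 5th and 25th percentiles of the ratio were −0.71 and −0.30. The ratio of 1418711_at lay below the 5th percentile, the only one of the 7 outside the middle 90% of its range, and that of 1449187_at lay between the 5th and the 25th.

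The 2 RefSeq starts of Pdgfa lie close together on the minus strand, and their windows are shown beside those of Ltbp1, which differed in the opposite direction, with the same motifs in capitals.
Pdgfa, chr5:138994895-138995194, minus strand: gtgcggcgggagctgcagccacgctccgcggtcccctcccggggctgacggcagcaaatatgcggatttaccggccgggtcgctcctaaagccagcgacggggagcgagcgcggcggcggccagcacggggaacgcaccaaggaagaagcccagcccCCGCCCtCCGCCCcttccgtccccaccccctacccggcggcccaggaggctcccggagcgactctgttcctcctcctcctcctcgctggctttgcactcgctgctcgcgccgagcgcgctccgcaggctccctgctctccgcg
Pdgfa, chr5:138994232-138994531, minus strand: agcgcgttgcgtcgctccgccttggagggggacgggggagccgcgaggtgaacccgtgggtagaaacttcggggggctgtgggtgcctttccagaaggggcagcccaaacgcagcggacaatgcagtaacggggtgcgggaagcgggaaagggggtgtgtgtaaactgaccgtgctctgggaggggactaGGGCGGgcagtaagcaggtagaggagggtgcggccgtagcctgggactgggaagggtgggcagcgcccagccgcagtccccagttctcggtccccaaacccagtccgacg
The windows hold 2 GC boxes and 1 GC box, and no match to the other motifs searched. The GC box is found in 35.7% of all windows. In all, 7 of the 9 genes have 10 windows in the table, of which 5 hold a SMAD box (in Ltbp1, Bmp6 and Egf), 5 a GC box (in Pdgfa, Tgfb1, Bmp4 and Bmp6), 2 an ETS motif (in Bmp4 and Egf), 1 the GC-rich SMAD site (in Igf1), 1 the cyclic AMP response element and 0 a GATA motif. The shares over all windows were 8.86% for the ETS motif, 11.9% for the GC-rich SMAD site, and 11.2% and 9.05% for the GATA forms. Bmp2 and Pdgfb have no entry.

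**Figure D2:**
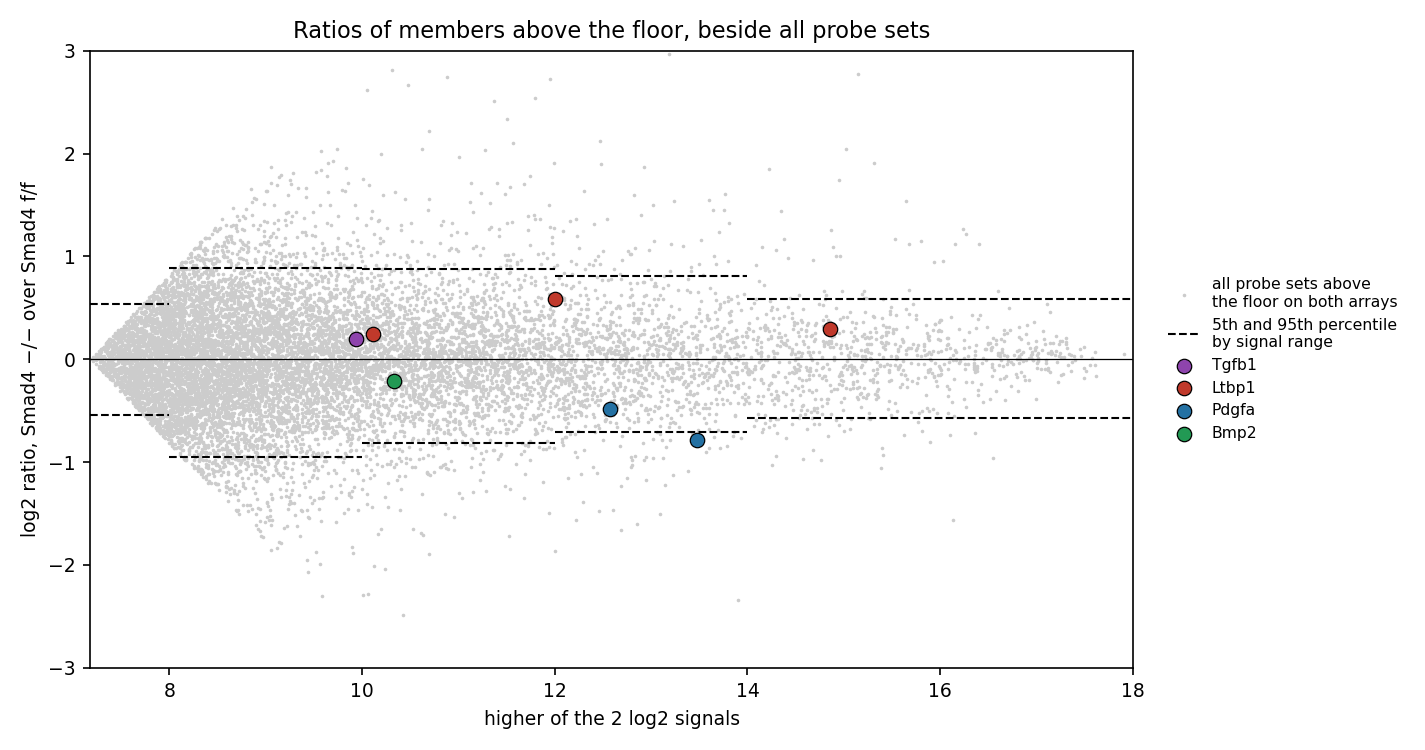
Log2 ratio, Smad4 −/− over Smad4 f/f (vertical axis), against the higher of the log2 signals of the arrays (horizontal axis) for the 12336 probe sets over the floor on each array (grey; 8 lie outside the plotted range), with the 7 member probe sets coloured by gene. Dashed lines mark the 5th and 95th percentiles in each signal range; 1 Pdgfa probe set, at −0.78, lies below the lower line.

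Pdgfb encodes the B chain of PDGF. Its probe set 1450413_at read 161 in Smad4 −/− and 133 in Smad4 f/f, close to the floor on one side and below it on the other. Probe set 1450414_at read 70.3 in Smad4 −/− and 33.0 in Smad4 f/f, below the floor on both arrays, so that no fold is given for either. The difference seen for the A chain therefore has no counterpart that could be measured for the B chain. All 5 genes of the PDGF list, Pdgfc, Pdgfd, Pdgfrl and the receptor genes Pdgfra and Pdgfrb, were below the floor on both arrays by their strongest probe set.

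Among the BMP genes, Bmp2 was the one above the floor on both arrays. BMP2 drives bone and cartilage formation and signals through SMAD1, SMAD5 and SMAD8. Its single probe set 1423635_at read 1110.01 in Smad4 −/− and 1289 in Smad4 f/f, a log2 ratio of −0.22. Among 2490 probe sets with a higher log2 signal between 10 and 12, the 25th percentile was −0.28, so this ratio was within the middle of the range. Bmp4, a close relative of Bmp2, read 25.8 in Smad4 −/− and 205 in Smad4 f/f on 1422912_at. Bmp6, which in mice controls hepcidin and so iron balance, read 20.7 in Smad4 −/− and 147 in Smad4 f/f on 1450759_at. Both were below the floor in Smad4 −/−, and the Smad4 f/f signals lay just above it, so no fold is given for either. Without a floor their log2 ratios would be −2.99 and −2.83, but with the floor they shrink to −0.50 and −0.01.

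Igf1 encodes a growth factor made mainly in liver and by stromal cells and macrophages. Of its 4 probe sets, 1437401_at reached the floor, with 158 in Smad4 −/− and 56.6 in Smad4 f/f. The other 3 read from 18.4 to 104 in Smad4 −/− and from 86.3 to 101 in Smad4 f/f, all below the floor. Without a floor, 2 of the 4 probe sets were higher in Smad4 −/− and 2 lower, with log2 ratios of 0.27 (1419519_at), −2.26 (1434413_at), 1.48 (1437401_at) and −0.68 (1452014_a_at). The SD of these ratios within the gene was 1.58, against 0.18 for Ltbp1. Egf encodes a ligand of the EGF receptor. Its probe set 1418093_a_at read 34.9 in Smad4 −/− and 102 in Smad4 f/f, below the floor on both arrays.

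These weak values can be set against what the arrays give at such signals. Of the 10 member probe sets below the floor on at least 1 array, 6 differed 2-fold or more before the floor was applied, 2 higher (Igf1 and Pdgfb) and 4 lower (Bmp4, Bmp6, Igf1 and Egf). Of all 22609 such probe sets, 53.8% did so, 25.1% higher and 28.6% lower. The 81 probe sets of olfactory and vomeronasal receptors, genes of sensory epithelia, had a 95th percentile of log2 7.74 in Smad4 −/− and 7.69 in Smad4 f/f. All signals of Bmp4, Bmp6, Igf1, Egf, Pdgfb and the second Tgfb1 probe set lie under a floor at the higher of these values, a linear signal of 214, and the 7 probe sets of Ltbp1, Pdgfa, Bmp2 and Tgfb1 lie above it on both arrays. For the genes under it the signals are given as read and no change between the genotypes is stated.

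The genes that hold, release or receive these ligands were grouped by role, with each gene read from its strongest probe set. Of all 11089 measured genes, 3.42% were 2-fold higher and 3.58% 2-fold lower. Of 15 measured genes of TGF-beta latency and activation, 2 were 2-fold higher and 2 lower, with a median log2 ratio of −0.01 against −0.02 for all genes. With the floor at the 75th percentile or at the sensory receptor level, 1 was higher and 1 lower. Ltbp2, which encodes a matrix protein of the LTBP family, read 3561 in Smad4 −/− and 1380.1 in Smad4 f/f, 2.58-fold higher. Ltbp4, another family member, read 244 in Smad4 −/− and 95.7 in Smad4 f/f, 1.68-fold higher with the latter raised to the floor. Ltbp3 was below the floor on both arrays. Ltbp2 and Ltbp4 rest on 1 measured probe set each. The log2 ratio of Ltbp4, 0.75 with the floor used here, was 0.19 with the sensory receptor floor. Ltbp4 was not measured with the floor at the 75th percentile. The log2 ratio of Ltbp2 was 1.37 with both, and could not change, because both of its signals lie above these floors. Nrros, which encodes a protein that anchors latent TGF-beta on myeloid cells, read 295 in Smad4 −/− and 62.7 in Smad4 f/f. With the latter raised to the floor used here it was 2.03-fold higher, a value that depends on the floor. Its log2 ratio was 0.47 with the sensory receptor floor and 0.18 with the floor at the 75th percentile, short of 2-fold.

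On the lower side, Emilin1, whose product restrains processing of the TGF-beta1 precursor, read 305 in Smad4 −/− and 772 in Smad4 f/f, 2.53-fold lower. Pcsk5, a proprotein convertase, read 128 in Smad4 −/− and 410 in Smad4 f/f, 2.82-fold lower with the former raised to the floor used here. This value too depends on the floor: its log2 ratio was −0.94 with the sensory receptor floor and −0.66 with the floor at the 75th percentile. Ltbp2 and Emilin1 were above the floor on both arrays. Their signals also lie above the higher floors, so a change of floor could not move their ratios.

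**Figure D3:**
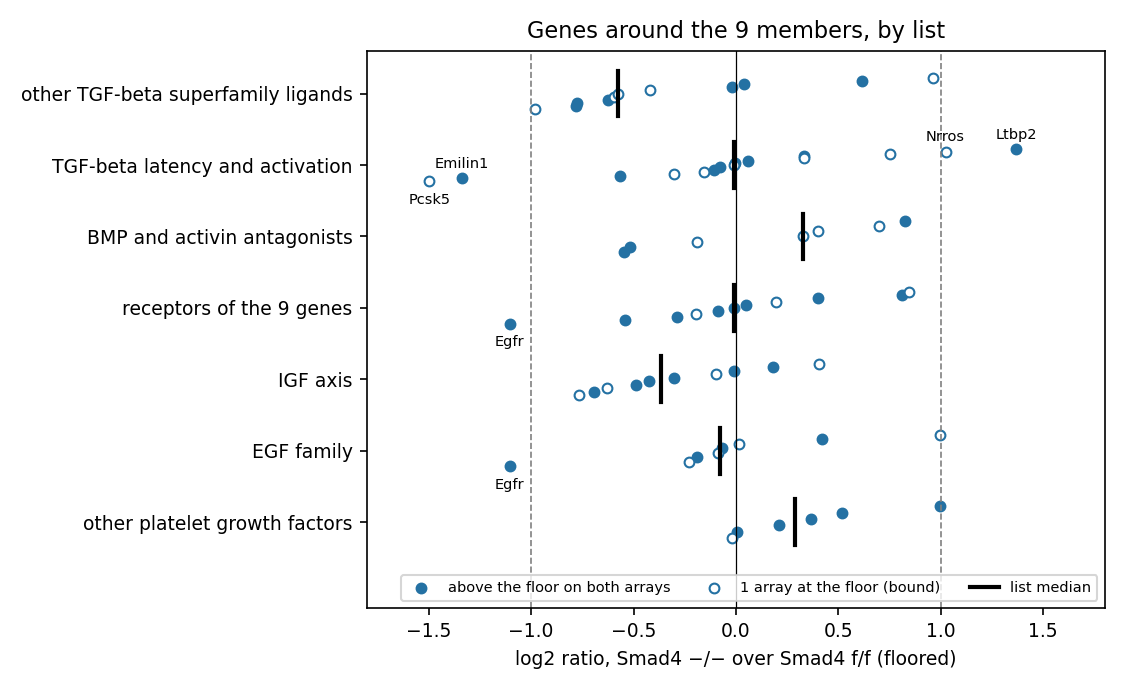
Log2 ratio, Smad4 −/− over Smad4 f/f on floored signals (horizontal axis), of each measured gene in 7 lists of related genes. Filled points are above the floor on both arrays, and open points have 1 array at the floor and are bounds that depend on the floor chosen. Black bars are list medians and dashed lines mark 2-fold. Ltbp2, Nrros, Emilin1, Pcsk5 and Egfr are the genes past 2-fold.

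The other TGF-beta superfamily ligands gave weak signals. Of 23 on the array, 11 were measured, and 0 were 2-fold higher or lower. Gdf3, at 0.96 on the log2 scale, passed 2-fold under median centring and quantile normalisation. With the floor at the 50th percentile, 1 of 13 was 2-fold higher and 3 were lower. The median log2 ratio was −0.58, but 5 of the 11 had 1 array at the floor, so their ratios had to differ from 0. Of the 6 above the floor on both arrays, 2 read higher and 4 lower. The strongest of them, Lefty1 and Inhbb, which encodes an activin subunit, had log2 ratios of −0.02 and 0.62; Lefty1 turned to 0.07 after median centring. Tgfb2 and Tgfb3 were below the floor on both arrays. Of 7 measured BMP and activin antagonists, 0 passed 2-fold (1 of 9 higher and 0 lower with the floor at the 50th percentile). Their median was 0.33, but 4 of the 7 had 1 array at the floor, and over the 3 above it on both arrays the median was −0.52. Bgn (biglycan), a matrix proteoglycan that binds TGF-beta, had a log2 ratio of 0.83 on its strongest probe set and a mean of 0.24 over its 3 measured probe sets, and Kcp had one of −0.55.

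Of 11 measured receptor genes for the 9 ligands and binding proteins, 0 were 2-fold higher and 1 was lower, with a median of −0.01. Egfr, the EGF receptor gene, read 462 in Smad4 −/− and 995 in Smad4 f/f on its strongest probe set, 2.15-fold lower, but the mean log2 ratio of its 3 measured probe sets was 0.18, in the opposite direction, and without probe sets ending in _s_at, _x_at or _a_at 0 receptor genes were lower. In the EGF family, which shares Egfr, 0 of 8 were higher and 1 was lower, with a median of −0.08. Epgn (epigen), an EGF receptor ligand gene at a log2 ratio of 0.997, passed 2-fold under median centring, quantile normalisation and loess correction. In the IGF axis, 0 of 10 passed 2-fold, with a median of −0.36. With the floor at the 50th percentile, 0 of 12 were higher and 2 lower. Igf1r, the IGF1 receptor gene, had a log2 ratio of −0.01 (0.08 after median centring), and Igfbp5, an IGF-binding protein gene, one of −0.49. Of 6 measured genes on a list of other platelet factors, not all of them growth factors, 0 passed 2-fold, with a median of 0.29. Gas6, which encodes a ligand of TAM receptors, stood at 0.995 and passed 2-fold under the same 3 scalings, but the mean over its 2 measured probe sets was 0.12. Angpt1 (angiopoietin 1) read 73569 in Smad4 −/− and 73356 in Smad4 f/f, and Mif, a cytokine gene, read 64753 in Smad4 −/− and 50263 in Smad4 f/f. Vegfa, Vegfb, Vegfc, Hgf and Fgf2 were among 8 of this list below the floor on both arrays.

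Markers of other cells that can travel with platelets also differed between the arrays. Of 8 measured erythroid markers, 5 were 2-fold higher in Smad4 −/− and 0 lower, led by Fech, and the summed linear signal of the list was 28846 in Smad4 −/− and 11497 in Smad4 f/f. For T and NK cell markers, 1 of 9 was higher and the sums were 18020.4 in Smad4 −/− and 8729.97 in Smad4 f/f, of which Cd28 made up 12825 and 4685. For B cell markers, 2 of 11 were higher and the sums were 8047 in Smad4 −/− and 6675 in Smad4 f/f. With the floor at the 75th percentile or at the sensory receptor level, 1 B cell marker was higher. Lymphoid and erythroid sums were thus larger on the Smad4 −/− array, as were the endothelial, neutrophil and platelet sums. Within the lists, 1 erythroid, 1 T and NK cell and 3 B cell markers read lower in Smad4 −/−, as did 1 endothelial, 1 neutrophil and 5 platelet markers. Over all measured genes, 3.42% were 2-fold higher and 3.58% 2-fold lower.

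Of 9 measured endothelial markers, 2 were higher, among them Flt1, which was below the floor in Smad4 f/f. With the floor at the 75th percentile or at the sensory receptor level, 1 was higher. The endothelial sums were 36718 in Smad4 −/− and 26991 in Smad4 f/f, and Esam, which platelets also carry, made up 29173 and 22458 of them. Monocyte and macrophage markers summed to 133898 in Smad4 −/− and 141611 in Smad4 f/f, of which Lyz2 made up 131259 and 139723, with 1 of 9 higher. That gene, Csf1r, had a log2 ratio of 1.64 on its strongest probe set but a mean of 0.28 over its 3 measured probe sets. It fell short of 2-fold with the floor at the 75th percentile. Neutrophil markers had 0 of 6 past 2-fold and sums of 8139.96 in Smad4 −/− and 6422 in Smad4 f/f. Stromal markers had 1 of 6 lower (Acta2, at −1.02, which fell short of 2-fold under all 3 other scalings and without probe sets ending in _s_at, _x_at or _a_at) and 0 higher, with sums of 1972 in Smad4 −/− and 2091 in Smad4 f/f, and the stromal genes Col1a1, Dcn, Lum, Pdgfra, Pdgfrb and Thy1 were below the floor on both arrays. So were Cd3e, Cd3g and Cd4 of the T cell list, Pax5 of the B cell list, Epb42 and Hba-a1 of the erythroid list, Tek and Tie1 of the endothelial list and C1qa and C1qb of the macrophage list, and 0 markers were listed at a signal of exactly 0. Probe sets naming several genes were not read, so the Hba-a1 value does not show whether globin RNA was present. The part of these cells, and of the difference in the Gapdh control, in the Ltbp1 and Pdgfa values was not tested.

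Probe sets of 1 gene give a yardstick for the scatter between probe sets. Over 877 genes with 2 or more probe sets above log2 10 on both arrays, the log2 ratios of a gene's probe sets had a pooled SD of 0.25, and over 364 genes with 2 or more above log2 12 the SD was 0.20. The Pdgfa ratios of −0.78 and −0.48 and the Ltbp1 ratios of 0.58 and 0.30, all from such probe sets, are larger than this, and the Bmp2 ratio of −0.22 is not larger than 0.25. For probe sets down to the floor the SD was 0.42 over 2767 genes, and the ratios of the third Ltbp1 probe set and of Tgfb1, which have a signal under 10, are smaller. The yardstick is taken around each gene's own mean, so it leaves out any shift that a gene's probe sets share. It also holds no spread between mice or arrays, and it cannot gauge a distance from 0. Over all probe sets with both signals over the floor, the ratios had an SD of 0.56 for a higher log2 signal between 10 and 12. That SD was 0.50 between 12 and 14 and 0.40 from 14 upwards. The Pdgfa ratio of −0.48 and the Ltbp1 ratio of 0.30 are smaller than the SD of their range.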

How the data were processed

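Washed mouse platelets of each genotype were profiled on 1 array. The authors deposited log2 signals, 1 per probe set and array, made with MAS5 per the submitters' processing notes. MAS5 merges the probes of a set into 1 signal and scales whole arrays. Weak signals scattered widely on these arrays: of probe sets below the floor on at least 1 array, 53.8% differed 2-fold or more with no floor. The log2 scale was read from the deposited values, whose antilogs have a trimmed mean of 500.007 on both arrays. No detection calls were used. Of 45037 probe sets that are not controls, 34945 have 1 gene symbol in the platform annotation, and 34741 of these were found by gene ID in RefSeq's GRCm38.p6 gene table.

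Ratios are log2 differences, Smad4 −/− minus Smad4 f/f, after raising each signal to a floor. A probe set was taken as measured where either array came up to the floor. For the lists of related genes, the probe set with the highest mean signal stood for a gene, and sets ending in _x_at were used where there was no other. All 9 genes were named. In each list up to 4 genes past 2-fold were named, largest first, or the 2 strongest where none passed. Ltbp4, Gdf3, Epgn, Gas6, Acta2, Esam, Lyz2, Fech, Cd28, Flt1 and Csf1r were named after their values were seen. The likeness of patterns across genes is undefined with 2 arrays. The 9 genes and the lists were chosen with earlier results of these data known. The alternatives were other scalings, floors, fold rules and probe set choices; those for the lists were added after seeing the data. The steps were run on simulated data with large changes in strong signals and little noise. This checks the code and does not show how it performs on weak signals or at the scatter of these arrays. Python 3.11.15, pandas 2.3.3, numpy 2.4.6 and statsmodels 0.14.6 were used.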

Additional observations from a re-analysis of the deposited data

How the results depend on the processing

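The counts of member probe sets past 2-fold stayed at 0 in both directions under median centring, quantile normalisation, loess correction and a floor at the 50th percentile. They were also 0 with the floors at the 75th percentile and from sensory receptors, the 3-fold rule, and without probe sets ending in _s_at, _x_at or _a_at. These last settings could not give another count. Higher floors and a larger fold can only lower a count, and none of the 12 measured member probe sets has such an ending. With no floor they were 2 higher and 4 lower, all on weak probe sets, and at 1.5-fold 1 was lower (Pdgfa). The counts over all probe sets, higher and lower, were 1122 and 1267 with a floor at the 50th percentile, 261 and 223 at the 75th, 317 and 302 with the sensory receptor floor, 6041 and 6815 with no floor, 2112 and 2390 at 1.5-fold and 95 and 79 at 3-fold; the floor or fold rule itself sets these. Of 80 recomputed single ratios of the members, 72 moved by no more than 0.48, the pooled SD between probe sets of a gene, and the other 8 belong to Bmp4, Bmp6, Igf1 and the weak Tgfb1 probe set with a lower floor or none. Many of the 72 could not move. A probe set above every floor keeps its ratio when the floor changes, and a gene with 1 measured probe set has that value as its mean. Ratios of probe sets not measured under an alternative are not among the 80. Egfr turned to 0.18 with the mean of its probe sets; the cause was not tested. Leaving out a sample was not possible with 1 array per genotype. No paired analysis was possible because each genotype has 1 sample. Signal over background limits Bmp4, Bmp6, Igf1, Egf and Pdgfb.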
